A study of Mus musculus with 12 samples.

Results

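L1Md_Gf is one of the young subfamilies of LINE-1 (L1), the retrotransposon that still copies itself in the mouse genome. Its members here were the repeat copies of the deposited table whose subfamily name is exactly L1Md_Gf: 1077 of 5138235 repeat copies, read as single copies and as their sum in each library. The rule used names alone and no measured value. Each copy carries a running name of the table, such as L1Md_Gf_447, and these names give no position.

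An L1 element carries its own promoter and codes for ORF1p, a protein that coats L1 RNA, and ORF2p, an endonuclease and reverse transcriptase that writes the RNA back into DNA. In mice the young elements fall into subfamilies named A, T and Gf, which are told apart mainly by their promoters, while the L1Md_F subfamilies are older. Most genomic copies of L1 are truncated or mutated, so few can give a full-length RNA. Male germ cells keep L1 down by DNA methylation and through piRNAs, small RNAs bound by PIWI proteins, and Maelstrom, the product of Mael, is a protein of that pathway.

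The 12 libraries came from testes of C57BL/6 mice at postnatal day 16, when germ cells have entered meiosis. The controls were Mael+/- mice, which carry 1 intact allele, and were compared with Mael-/- mice, in which Mael is mutated. From each of 3 extracts per genotype, total RNA was sequenced after removal of ribosomal RNA, and the pieces of RNA that ribosomes shield from micrococcal nuclease were sequenced as ribosome footprints. All testes were kept in cycloheximide, which holds ribosomes on RNA, so all 4 groups share that treatment. The number of animals behind each extract is not given in the sources used here, and whole testes also hold somatic cells.

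Gene counts summed to 13697267 to 27462358 per RNA library and 7609932 to 13233565 per footprint library, and the share of counts in repeat copies was 7.65 to 10.2% for RNA and 10.8 to 13.6% for footprints. Levels are given as CPM, counts per 1000000 gene counts of the same library after TMM scaling. Mael had 5045, 4314 and 3800 RNA counts in Mael+/- and 1, 2 and 0 in Mael-/- libraries. Its footprint counts were 1294, 660 and 863 in Mael+/- and 0, 0 and 7 in Mael-/- libraries, where replicate 3 held 7 although its RNA library had 0.

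The first comparison asked whether L1Md_Gf RNA differed between the genotypes. The summed L1Md_Gf counts were 139, 114 and 136 in the Mael+/- RNA libraries and 505, 581 and 524 in the Mael-/- RNA libraries. As levels these were 6.03, 4.18 and 5.15 CPM against 36.5, 28.8 and 19.1 CPM. Every Mael-/- library lay above every Mael+/- library. The mean rose from 5.12 ± 0.928 to 28.1 ± 8.76 CPM (SD, n = 3 each). edgeR's quasi-likelihood test gave a log2 fold change of 2.45 (SE 0.26, 95% interval 1.90 to 3.01, adjusted p = 2.68e-05 over 1114 subfamilies), a 5.48-fold rise, where 0.898% of subfamilies were called and all of these were higher in Mael-/-.

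Ribosome footprints on L1Md_Gf were fewer but moved the same way. Footprint counts were 36, 22 and 20 in Mael+/- and 239, 202 and 126 in Mael-/- libraries. The levels were 3.82, 2.84 and 1.95 CPM against 18.1, 20.2 and 14.9 CPM, again without overlap. The mean rose from 2.87 ± 0.937 to 17.7 ± 2.65 CPM (SD, n = 3 each), and edgeR gave a log2 fold change of 2.63 (SE 0.23, 95% interval 2.17 to 3.09), a 6.20-fold rise. Its adjusted p was 1.51e-26 over 1045 subfamilies, of which 1.82% were called, 1.15% higher and 0.67% lower in Mael-/-. In this fit edgeR estimated 1 common spread for all subfamilies, which makes p small. DESeq2 on the same counts gave an adjusted p of 3.56e-19.

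**Figure D1:**
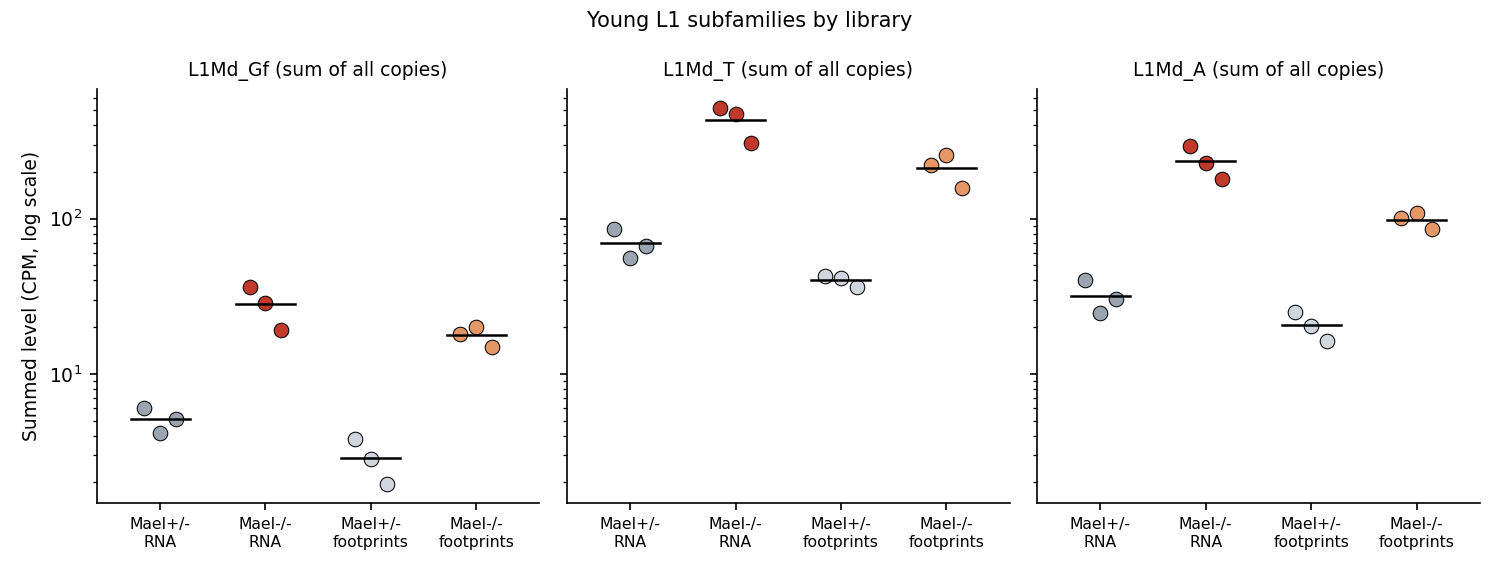
Summed level of L1Md_Gf, L1Md_T and L1Md_A in CPM on a log axis, 1 point per library and a line at the group mean. In each panel the 3 Mael-/- libraries lie above the 3 Mael+/- libraries, in RNA and in footprints; L1Md_Gf means were 5.12 and 28.1 CPM in RNA and 2.87 and 17.7 CPM in footprints.

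Translation efficiency, the change of footprints beyond that of RNA, was tested as the interaction of genotype and assay. The ratio of L1Md_Gf footprint CPM to RNA CPM, with libraries paired by replicate number, was 0.634, 0.679 and 0.379 in Mael+/- and 0.496, 0.700 and 0.782 in Mael-/-. These ranges overlapped. edgeR gave a log2 difference of 0.18 (95% interval -0.58 to 0.93, adjusted p = 0.9997), and 0 of 1148 subfamilies were called, with 35 at an unadjusted p under 0.05 and 0 called by DESeq2. An increase in the ratio by more than 0.93 or a decrease by more than 0.58 on the log2 scale lay outside the interval.

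Genes known to mark germ cell stages were also compared between the genotypes. Of 12 pachytene markers, genes switched on in the middle of meiotic prophase, 10 could be tested in RNA, all 10 had a log2 fold change below 0, and 0 passed edgeR's test (7 at an unadjusted p under 0.05). None of the 12 was without counts in all libraries. Their summed RNA level was 943, 328 and 364 CPM in Mael+/- and 266 to 302 CPM in Mael-/- libraries. In footprints the summed levels overlapped, at 323 to 1122 CPM in Mael+/- and 289 to 337 CPM in Mael-/- libraries. The 10 early prophase markers summed to 992 to 2470 CPM in Mael+/- and 976 to 1421 CPM in Mael-/- RNA, with 4 members above 0, 6 below and 0 called (1 at an unadjusted p under 0.05). Mael+/- replicate 1 held the most of both lists. Of 8 spermatogonia, 8 Sertoli, 6 Leydig, 5 macrophage and 4 peritubular myoid markers tested in RNA, edgeR called 0 (0, 0, 1, 1 and 1 at an unadjusted p under 0.05), and only the summed myoid level did not overlap, at 866 to 907 CPM in Mael+/- and 970 to 1019 CPM in Mael-/-. In footprints the summed myoid levels overlapped, at 1121 to 1390 CPM in Mael+/- and 1364 to 1687 CPM in Mael-/-. Without the library of Mael+/- replicate 1 the L1Md_Gf log2 fold change was 2.59 in RNA and 2.92 in footprints. Whole testis cannot tell fewer cells of a type from less RNA per cell. The part of the marker differences in the L1Md_Gf values was not tested.

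The piRNA pathway genes themselves were mostly at or below their control level. Of 22 listed genes, 20 had a log2 fold change below 0 in RNA, and only Mael was called (adjusted p = 3.35e-07 in edgeR, where 0.116% of 14647 genes were called). With Mael among them, 9 had an unadjusted p under 0.05 in RNA. The list median in RNA was -0.24 against -0.01 over all genes. In footprints 20 were below 0, 7 had an unadjusted p under 0.05 and only Mael was called. Piwil1, a PIWI protein that appears in pachytene cells and also stands in that marker list, was at 34.6 ± 38.4 CPM in Mael+/- and 7.64 ± 0.724 CPM in Mael-/- (SD, n = 3 each), with the high SD coming from the controls. Of 16 tested DNA methylation and chromatin silencers of L1 and 18 L1 restriction and L1 body proteins, 0 were called in RNA and 0 in footprints by edgeR (0 and 4 at an unadjusted p under 0.05 in RNA, 0 and 1 in footprints), where 0.0593% of 13500 genes were called in footprints.

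L1Md_Gf was next set beside the other L1 subfamilies. The other young subfamilies, L1Md_T and L1Md_A, rose in RNA by 2.64 and 2.89 on the log2 scale, and in footprints by 2.41 and 2.26. The older L1Md_F, L1Md_F2 and L1Md_F3 had log2 fold changes of 0.74, 0.57 and 0.70 in RNA and 0.59, 0.53 and 0.57 in footprints, and none was called. L1_Mus1 was at 0.39 and 0.29 and was not called. L1_Mm, another older subfamily, was not called in RNA at 0.69 but was called in footprints at 1.19 (SE 0.21, edgeR adjusted p = 2.55e-06).

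**Figure D2:**
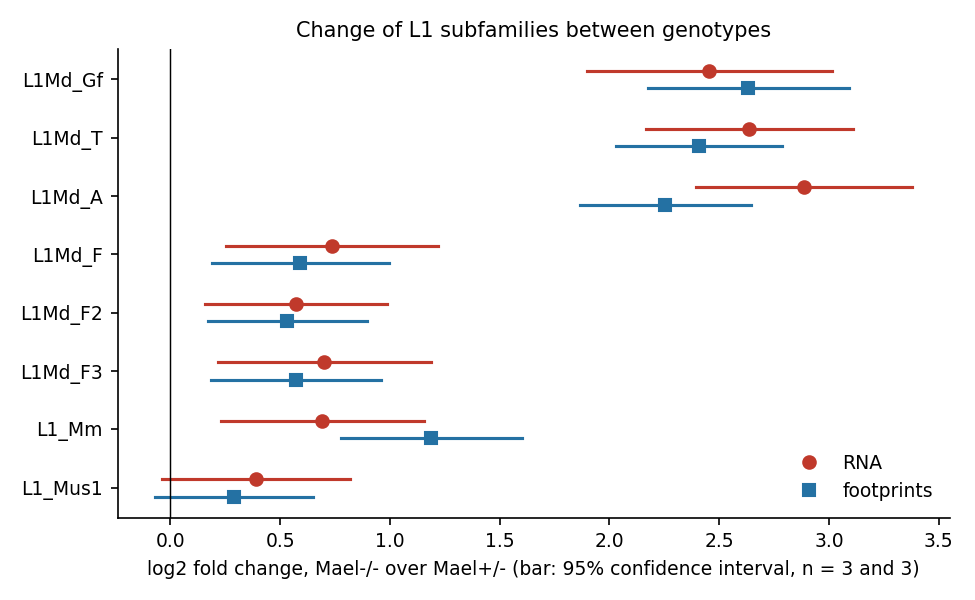
Log2 fold change of Mael-/- over Mael+/- for 8 L1 subfamilies, circles for RNA and squares for footprints, with 95% confidence intervals from edgeR (n = 3 and 3). L1Md_Gf, L1Md_T and L1Md_A lie between 2.26 and 2.89, and the 5 older subfamilies lie at 1.19 or below.

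Whether L1Md_Gf responded differently from its young relatives was tested on the ratio of the sums within each library, with 4 exact tests in all. L1Md_Gf counts were 7.06, 7.47 and 7.73% of L1Md_T counts in Mael+/- RNA and 7.05, 6.11 and 6.24% in Mael-/- RNA. Against L1Md_A they were 15, 17.0 and 16.9% in Mael+/- and 12.4, 12.5 and 10.6% in Mael-/- RNA. All Mael-/- RNA ratios thus lay below the Mael+/- ones, with mean differences of 0.20 (L1Md_T) and 0.46 (L1Md_A) on the log2 scale. Against L1Md_T this was nearly a tie, with 7.056% in Mael+/- replicate 1 and 7.052% in Mael-/- replicate 1. The exact permutation p was 0.1 for each, the smallest that 3 against 3 allows, and 0.133 after adjustment.

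In footprints the ratios stood the other way. L1Md_Gf made 15.2, 13.9 and 12% of L1Md_A footprints in Mael+/- and 17.9, 18.6 and 17.5% in Mael-/- libraries, a log2 difference of 0.40 (exact permutation p = 0.1, adjusted 0.133). Against L1Md_T the footprint ratios overlapped, with a log2 difference of 0.29 (exact permutation p = 0.3). None of these 4 tests could pass a threshold of 0.05.

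The sum hides a small set of copies that did not follow it. L1Md_Gf_247, L1Md_Gf_248 and L1Md_Gf_249 had the most counts over the 12 libraries, were the only copies with at least 100 counts, and were singled out after their values were seen. RNA counts of L1Md_Gf_247 were 23, 27 and 38 in Mael+/- and 28, 14 and 26 in Mael-/- libraries. Those of L1Md_Gf_249 were 30, 23 and 34 against 22, 31 and 26, and those of L1Md_Gf_248 were 15, 11 and 15 against 9, 11 and 10. Their ranges overlapped, in counts from libraries of unlike depth. Their log2 fold changes were 0.02 (SE 0.36), -0.10 (SE 0.43) and 0.22 (SE 0.32) for L1Md_Gf_247, L1Md_Gf_248 and L1Md_Gf_249, and edgeR called none.

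Together these 3 copies were at 2.83 ± 0.541 CPM in Mael+/- and 3.10 ± 1.05 CPM in Mael-/- RNA (SD, n = 3 each), a ratio of means of 1.10. In footprints they were at 1.43 ± 0.140 and 1.69 ± 0.426 CPM. They held 55.5% of L1Md_Gf RNA counts and 50% of footprint counts in Mael+/-, but 11% and 9.52% in Mael-/- libraries. The other copies went from 2.29 ± 0.684 to 25.0 ± 7.78 CPM in RNA and from 1.44 ± 1.04 to 16 ± 2.98 CPM in footprints. That is 10.9-fold and 11.1-fold by the means, against 5.49-fold and 6.17-fold for all copies. The log2 fold changes without the 3 copies were 3.45 (SE 0.30) and 3.48 (SE 0.26).

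**Figure D3:**
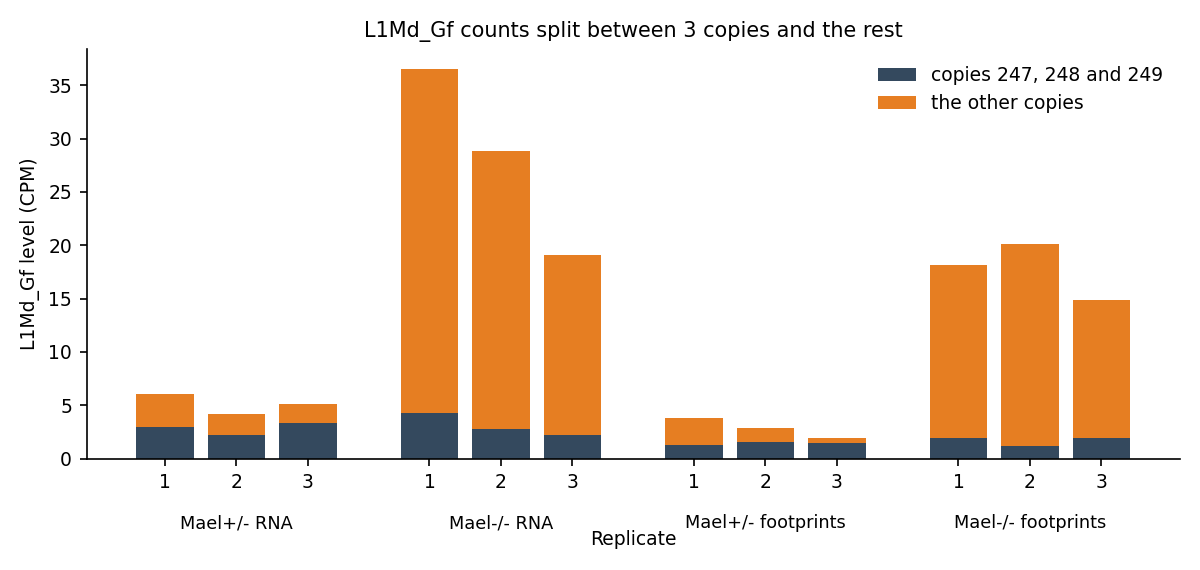
L1Md_Gf level in CPM in each of the 12 libraries, stacked as the 3 copies L1Md_Gf_247, L1Md_Gf_248 and L1Md_Gf_249 (dark) and all other copies (orange). The dark part averaged 2.83 CPM in Mael+/- and 3.10 CPM in Mael-/- RNA, while the orange part averaged 2.29 and 25.0 CPM.

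The like subfamilies have many more copies, 23639 for L1Md_T and 16802 for L1Md_A, so shares in 3 copies are set side by side without a test. The 3 most counted L1Md_T copies held 10.7% of L1Md_T RNA counts in Mael+/- and 2.28% in Mael-/-, and those of L1Md_A held 4.74% and 1.65%. Both also had copies that changed little in RNA. L1Md_T_8025 alone was at 7.02 CPM in Mael+/- and 8.76 CPM in Mael-/- RNA, with no footprints, and L1Md_T_18259 was at 0.383 and 0.401 CPM. L1Md_A_6751 was at 0.623 and 0.884 CPM, and L1Md_A_8530 at 0.827 and 0.629 CPM. The remaining copy of each rose, L1Md_T_15590 from 0 to 0.211 CPM and L1Md_A_16001 from 0.0416 to 2.33 CPM. Leaving out the 3 most counted copies gave RNA ratios of means of 6.81 for L1Md_T and 7.64 for L1Md_A. When the 3 most counted copies of each subfamily were left out, the RNA ratio of L1Md_Gf turned direction. It was then higher in Mael-/- by 0.68 (against L1Md_T) and 0.50 (against L1Md_A) on the log2 scale. The footprint ratios were then higher in Mael-/- by 1.35 and 1.46. The copies left out were chosen by their counts in these same libraries, so no test of these ratios is given. The L1Md_Gf copies left out held 55.5% of its RNA counts in Mael+/- and 11% in Mael-/-, so their removal itself raised its Mael-/- level against Mael+/-. The direction of the RNA ratio thus differed with and without the most counted copies, and why was not tested.

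The number of L1Md_Gf copies with a count also differed. It was 54, 36 and 34 in the Mael+/- RNA libraries and 182, 193 and 180 in the Mael-/- RNA libraries. For footprints it was 20, 9 and 6 against 103, 91 and 56. The lowest Mael-/- library had more copies with counts than the highest Mael+/- library in both assays. Gene counts in RNA were lower in 2 of the 3 Mael-/- libraries than in any control. In footprints Mael-/- replicate 1 was deeper than every control, at 13233565 gene counts against 7609932 to 10207529, which by itself can add copies with a count. Mael-/- footprint replicates 2 and 3, at 9987343 and 8401342, lay within the control range. Over all 12 libraries 373 copies, 34.6% of the members, had a count, 129 of them exactly 1 count, and 62 had at least 10. The other 704 copies had none.

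Of 305 copies with RNA counts, 221 (72.5%) had them in Mael-/- libraries alone, where 26.7% of all repeat copies with RNA counts did, and 18 (5.90%) in Mael+/- libraries alone, where 26.6% of all did. Copies without any Mael+/- RNA count carried 48.7% of the L1Md_Gf RNA counts of Mael-/- testes. In 83 copies (27.2%) all 3 Mael-/- RNA levels lay above all 3 Mael+/- levels, against 2.51% of all repeat copies, and in 2 copies (0.656%) they lay below, against 1.97%. The share above was 18.9% of 5676 L1Md_T copies and 17.3% of 3579 L1Md_A copies with RNA counts. Other shares were closer: 65.1% of L1Md_T and 70.8% of L1Md_A copies with RNA counts had them in Mael-/- alone, and copies without a Mael+/- RNA count carried 49.4% and 60.4% of their Mael-/- RNA counts. In footprints, 157 of 184 copies with counts (85.3%) had them in Mael-/- alone, against 37.4% of all, and 13 (7.07%) in Mael+/- alone, against 25.1%. In 15 copies (8.15%) all Mael-/- levels lay above the controls, against 1.91% of all and 8.27% of L1Md_T and 5.54% of L1Md_A copies. No copy lay below without overlap, against 0.973% of all. These are counts without a test, and copies with few counts cannot show the absence of RNA in the controls.

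Only 7 copies had enough RNA counts for edgeR's filter. edgeR called 4, all higher in Mael-/-, where 1.51% of 16710 repeat copies were called higher. These 4 passed the filter through the Mael-/- group alone, where they were high, so their number and their p-values are a description. L1Md_Gf_447 had 2, 1 and 1 RNA counts in Mael+/- and 30, 27 and 27 in Mael-/- libraries. This was the highest copy in Mael-/- RNA, at 1.5 ± 0.610 CPM (SD, n = 3), with a log2 fold change of 4.65 (SE 0.55, adjusted p = 7.12e-06 in edgeR). L1Md_Gf_138 went from 1 count in each Mael+/- library to 13, 17 and 14 (log2 fold change 4.07, SE 0.69, edgeR adjusted p = 0.0005).

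L1Md_Gf_1041 had 1, 0 and 0 RNA counts in Mael+/- and 10, 12 and 14 in Mael-/-, and L1Md_Gf_228 had 0, 3 and 0 against 6, 15 and 12. Their log2 fold changes were 5.03 (SE 0.91, edgeR adjusted p = 0.00117) and 3.62 (SE 0.84, edgeR adjusted p = 0.0191). Both copies passed the filter through the Mael-/- group, so these p-values too are a description. The call of L1Md_Gf_1041 was lost without Mael-/- RNA replicate 2 (adjusted p = 0.0520). That of L1Md_Gf_228 was lost without Mael+/- replicate 3 (0.125) or without any 1 of the Mael-/- replicates 1, 2 and 3 (0.0824, 0.486 and 0.0540).

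With a looser filter, a total of at least 10 counts, 44 copies could be tested in RNA and edgeR called 17, all higher in Mael-/-, where 0.728% of 124456 repeat copies were called higher. Most of these too reached the total through the Mael-/- group, so the count is a description. Among them L1Md_Gf_813 had 0 counts in every Mael+/- library and 7, 11 and 11 in Mael-/-, at least 12.1-fold higher when 3 counts over the group are set as the floor. L1Md_Gf_319 had 0 against 8, 10 and 8 counts, at least 10.8-fold higher. L1Md_Gf_904 was less even, with 0, 0 and 2 against 12, 10 and 3 counts.

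Below the 3 leading copies, the highest copies of Mael+/- RNA were few-count copies. L1Md_Gf_538 had 4, 5 and 7 counts in Mael+/- and 3, 2 and 3 in Mael-/-, and L1Md_Gf_760 had 2, 5 and 4 against 1, 2 and 2. Neither had a footprint count in any library. L1Md_Gf_250, L1Md_Gf_399, L1Md_Gf_400 and L1Md_Gf_401 had 6 to 7 counts over the Mael+/- libraries and 2 to 8 over the Mael-/- libraries. L1Md_Gf_832 had 4, 0 and 1 against 6, 10 and 6 counts, with all Mael-/- counts above the controls.

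In footprints other copies led. L1Md_Gf_57 had 0, 3 and 0 footprint counts in Mael+/- and 20, 43 and 13 in Mael-/- libraries, and its RNA counts were 0 in every Mael+/- library and 3, 4 and 1 in Mael-/-. It was the highest copy in Mael-/- footprints at 2.45 ± 1.6 CPM (SD, n = 3). It was the 1 copy with enough footprint counts for the filter, and edgeR called it (log2 fold change 4.31, SE 0.76, adjusted p = 0.003). Of 5511 repeat copies 0.817% were called, 0.563% higher and 0.254% lower. With 3 counts in Mael+/- and 76 in Mael-/-, L1Md_Gf_57 passed the filter through the group where it was high. That call was lost with DESeq2 (adjusted p = 0.0940) and without Mael-/- footprint replicate 2 (edgeR adjusted p = 0.177).

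L1Md_Gf_281 had no footprint count in Mael+/- and 11, 9 and 10 in Mael-/-, at least 8.66-fold higher against the floor of 3 counts. L1Md_Gf_76 had none against 13, 12 and 4, at least 8.37-fold higher. With the looser filter 11 copies could be tested in footprints and edgeR called 5, all higher in Mael-/-. Of 53221 repeat copies 0.511% were called, 0.16% higher and 0.351% lower. The 5 were L1Md_Gf_57, L1Md_Gf_76, L1Md_Gf_142, L1Md_Gf_281 and L1Md_Gf_964. They reached the filter through the Mael-/- group, so this count too is a description. In RNA, L1Md_Gf_57 and L1Md_Gf_76 had too few counts to be tested, and L1Md_Gf_142, L1Md_Gf_281 and L1Md_Gf_964 had log2 fold changes of 3.83, 3.86 and 3.56 that edgeR did not call (adjusted p = 0.0764, 0.0672 and 0.231).

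L1Md_Gf_994 stood apart from the footprint-rich copies. It had 7, 3 and 3 footprint counts in Mael+/- and 12, 3 and 7 in Mael-/- libraries, and 0 RNA counts in all 6 RNA libraries. Its footprints overlapped between genotypes, with a ratio of 1.47 (exact 95% interval of counting error 0.706 to 3.17). In Mael-/- its footprint level was at least 14.2 times its RNA level against a floor of 3 RNA counts.

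**Figure D4:**
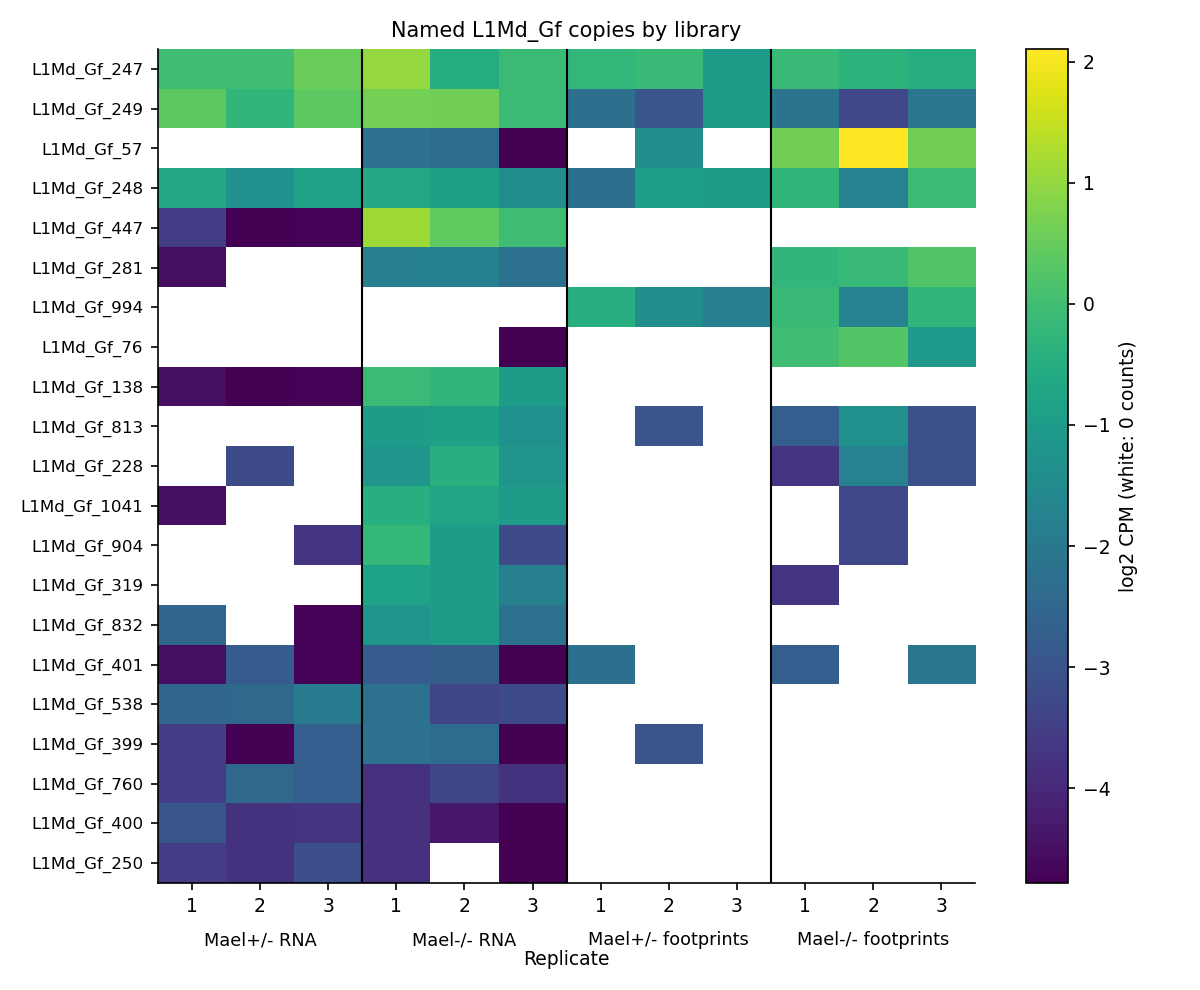
Level of the named L1Md_Gf copies in each library as log2 CPM, with white for 0 counts, copies ordered by mean level and libraries grouped by genotype and assay. L1Md_Gf_247, L1Md_Gf_248 and L1Md_Gf_249 are filled in all 12 libraries, L1Md_Gf_447 and L1Md_Gf_138 only in RNA, and L1Md_Gf_994 only in footprints.

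The 2 assays were then compared within Mael-/- testes, a comparison added after the data were seen. CPM is scaled to gene counts, which span the mRNA in RNA libraries but the coding part alone in footprint libraries. Differences between the assays thus rest on unlike denominators. For the sum, footprint CPM was below RNA CPM by 0.66 on the log2 scale (SE 0.19, 95% interval of the log2 fold change -1.05 to -0.27, edgeR adjusted p = 0.00423). Of the subfamilies 58.5% were called, 47.4% with more footprints and 11% with more RNA. L1Md_T was at -1.03 and L1Md_A at -1.26. Without Mael-/- RNA replicate 1 the L1Md_Gf value was -0.42 with an adjusted p of 0.0588 in edgeR.

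Single copies lay on both sides. L1Md_Gf_447 had 84 RNA counts and 0 footprint counts in Mael-/- testes, so its RNA level was at least 14.4 times its footprint level, and L1Md_Gf_138 had 44 and 0, at least 7.55 times. L1Md_Gf_57 had 8 RNA counts and 76 footprint counts, with a footprint level 18.4 times its RNA level (exact 95% interval of counting error 8.90 to 44.3). L1Md_Gf_281 had 16 and 30 counts, a ratio of 3.64 (1.92 to 7.15). L1Md_Gf_249 had 79 RNA and 6 footprint counts, and L1Md_Gf_247 had 68 and 26. In edgeR 4 of the 5 copies tested were called, where 81.9% of 9595 repeat copies were called: L1Md_Gf_57 (log2 4.12, SE 0.57) and L1Md_Gf_281 (1.83, SE 0.37) with more footprints, L1Md_Gf_249 (-2.75, SE 0.51) and L1Md_Gf_447 with more RNA. With the looser filter 31 of 55 copies were called, 8 of them with more footprints, where 36.9% of 94937 copies were called, 15% with more footprints and 21.9% with more RNA. These shares carry no test.

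**Figure D5:**
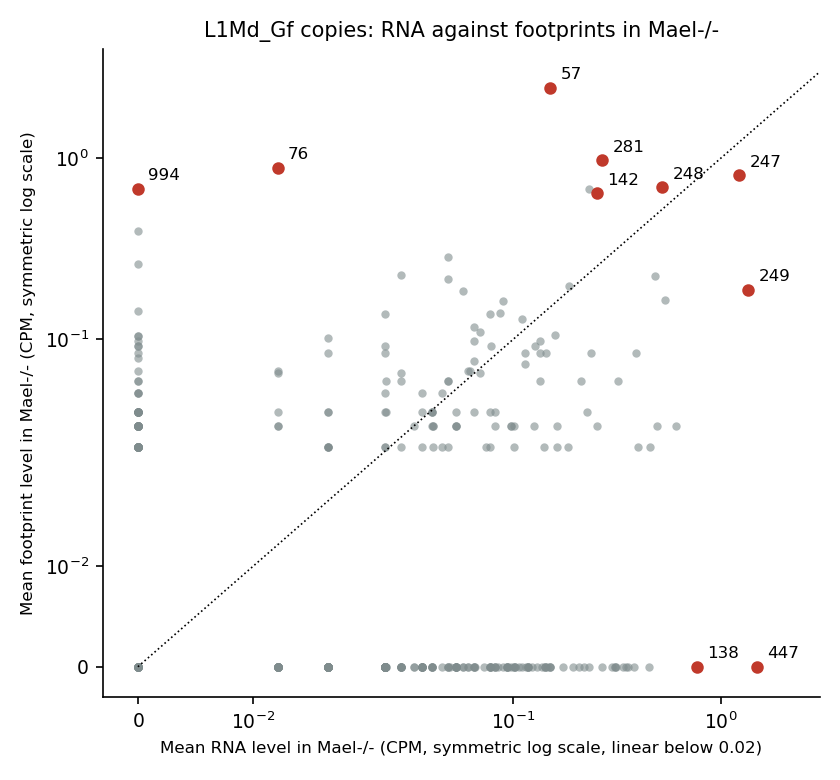
Mean RNA level (x) against mean footprint level (y) of the 373 L1Md_Gf copies with counts, in Mael-/- testes, in CPM on symmetric log axes that are linear below 0.02, with a dotted line at equal levels. L1Md_Gf_447 and L1Md_Gf_138 lie on the x axis at 1.5 and 0.764 CPM with no footprints, and L1Md_Gf_57 has the highest footprint level at 2.45 CPM with 0.151 CPM of RNA.

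The pattern over copies recurred within an assay and not between assays. Over the 62 copies with at least 10 counts, levels in pairs of Mael-/- RNA libraries had a Spearman rho of 0.67 to 0.70 and a Pearson r of 0.80 to 0.89, and pairs of Mael-/- footprint libraries had rho of 0.66 to 0.75 and r of 0.76 to 0.86. Between RNA and footprints of the same replicate number rho was -0.26 to -0.10 and r was -0.05 to 0.01. These values are across copies, which share libraries and depth, and choosing copies by their total over both assays lowers the value between assays. The same measures between assays were -0.22 to -0.18 for rho over 904 L1Md_T copies and -0.21 to -0.12 over 461 L1Md_A copies. Of the L1Md_Gf RNA counts of Mael-/- testes, 50.2% lay in copies without a Mael-/- footprint count, and 22.9% of footprint counts lay in copies without a Mael-/- RNA count. These shares were 52.5% and 27.54% for L1Md_T and 56.6% and 29.3% for L1Md_A. RNA and footprint reads differ in length and preparation, and how reads that match several copies were placed in these libraries is not given in the sources used here, so translation of single copies and placement of reads cannot be told apart.

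For translation efficiency between genotypes, 6 copies passed the filter and edgeR called 0 (0 at an unadjusted p under 0.05, 0 by DESeq2), where 0.00714% of 14013 repeat copies were called. L1Md_Gf_447 had no footprint count and L1Md_Gf_994 no RNA count in any library, so their fits could not show a difference (SE 8329 and 1044). L1Md_Gf_57 had no RNA count and L1Md_Gf_281 no footprint count in Mael+/-, which left these without a control level. Only L1Md_Gf_247 and L1Md_Gf_249 had counts in all 4 groups, with log2 differences of 0.13 (SE 0.61) and -0.82 (SE 0.83). Footprint counts in Mael+/- testes, 78 over 3 libraries for the whole subfamily, limited this test.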

How the data were processed

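Per the methods, the authors clipped linkers, removed ribosomal DNA reads from footprints (Bowtie 1.2.2), aligned reads to mm10 (STAR 2.6.0c) and counted them with featureCounts (Subread 1.6.4). Gene counts span the mRNA in RNA libraries but the coding part alone in footprint libraries. For other libraries the authors reassigned ambiguous reads with Telescope. Whether that was done here, and how duplicates were treated, is not given in the sources used here. The deposited table holds raw counts for 20620 genes and 5138235 repeat copies; deposited tables of the authors' DESeq2 1.24.0 fold changes and p-values were not used. It gives no coordinates, lengths or sequences of copies. Those were not analysed here.

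Counts were tested with edgeR 4.0.16 (R 4.3.3) quasi-likelihood F-tests, two-sided, with filterByExpr (minimum count 10), gene library sizes and TMM factors, and Benjamini-Hochberg adjustment over all subfamilies or all repeat copies tested. A feature was called at an adjusted p under 0.05. Ratios were tested with SciPy 1.17.1 by exact permutation over libraries. DESeq2 1.42.0, other scaling and filters, a replicate block and leaving out each library were tried as alternatives, and scripts were tested on simulated data. Ratios of counts carry exact conditional binomial 95% intervals, and a group without counts was set at 3 counts over the group; both cover counting error only. The labels give 3 replicates per group but name no animals or cultures, so p-values measure the spread between these libraries, which may be technical. No pair of replicates held identical counts.

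RNA and footprints with the same genotype and number were taken to come from the same extract. The methods describe both as taken from the same extracts, but the labels do not tie replicate numbers across assays. Deviations of such pairs from their group correlated over 10412 genes at 0.79, 0.65 and 0.72 (Mael+/-) and 0.25, 0.29 and 0.28 (Mael-/-), above the limit of 0.1, so a fit with each extract as a block stands beside the unblocked interaction.

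The members, gene lists and tests were chosen with earlier results of these data known. The rule for named copies took up to 10 called copies per assay with a mean of at least 10 counts, largest log2 fold change first, the 10 highest mean CPM in RNA and the 5 highest in footprints of each genotype. Copies named outside it are L1Md_Gf_142, L1Md_Gf_964 and L1Md_T_8025, chosen after their values were seen. The part of the rule on copies overlapping exons could not be applied.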

Additional observations from a re-analysis of the deposited data

How the results depend on the processing

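The rise of the L1Md_Gf sum kept its direction and its call under every alternative run, with log2 fold changes of 2.22 to 3.45 in RNA and 2.40 to 3.48 in footprints; the highest of each came without L1Md_Gf_247, L1Md_Gf_248 and L1Md_Gf_249, an alternative chosen after seeing the data, as were all of those for the comparison of the assays within Mael-/- and the ratios without the most counted copies. Between genotypes the libraries share only a replicate number: correlations of deviations ran from -0.058 to 0.31 in RNA and 0.071 to 0.30 in footprints, and 3 of 6 RNA and 4 of 6 footprint libraries correlated best with their own number. With that number as a replicate block the sum was at 2.42 in RNA and 2.63 in footprints, and no call of the sum changed. With each extract as a block, translation efficiency was 0.23 (edgeR adjusted p = 0.995). It ran from -0.052 to 0.46 when single libraries were left out, turning below 0 without Mael+/- footprint replicate 3 (-0.052) or Mael-/- RNA replicate 3 (-0.046). The sum of footprints against RNA in Mael-/- ran from -0.88 to -0.42.

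Called copies depended on the filter. With a looser filter edgeR called 17 of 44 in RNA, 5 of 11 in footprints and 31 of 55 between assays in Mael-/-; with a stricter one (a mean of at least 20 counts) it called 0 of 2, 0 of 0 and 0 of 0, fewer copies being tested. DESeq2 called 0 in footprints. Leaving out single libraries gave 2 to 6 calls in RNA (2 without Mael-/- RNA replicate 2), 0 to 1 in footprints (0 without Mael-/- footprint replicate 2) and 5 to 7 between assays (7 without Mael-/- RNA replicate 3); the cause was not tested.

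The RNA ratios to L1Md_T and L1Md_A turned to 0.68 and 0.50 without the 3 most counted copies of each subfamily. When single libraries were left out, L1Md_Gf_247 in RNA ran from -0.46 to 0.31 and L1Md_Gf_248 from -0.28 to 0.14, and with the replicate block L1Md_Gf_247 was at -0.030, with no call in any of these fits. Of 268 values recomputed, 240 kept their direction and side of the threshold or stayed within 1.5 times. Alternatives by copy length or gene overlap, and the share of counts in long copies, were not run, since positions of copies were not used here. Depth limited single copies, 129 of which had 1 count in all.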
